A study of Homo sapiens with 6 samples.

Results

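PRODH encodes proline dehydrogenase, the enzyme that starts the breakdown of proline. It is 1 of the 6641 genes in the deposited table and was matched by its Ensembl identifier (ENSG00000100033). It was selected on measured values, its difference between the cell lines in these same libraries, so its own levels are given as a description, with no test. The series holds 6 RNA libraries of 2 human non-small cell lung cancer lines. HCC827, with 3 libraries, is a widely used cell line from an adenocarcinoma of the lung, known for a mutation that keeps the growth factor receptor EGFR active. HCC827_Er also has 3 libraries. The series title sets resistant beside parental cells and its design text asks about resistance to inhibitors of the EGFR kinase and histone crotonylation; the labels of the samples do not spell out what Er stands for. The labels give no drug, dose or culture time for either line and do not say whether HCC827_Er is a single clone. Nor do they say if a line's 3 libraries go back to different cultures, so a p-value here reflects just the variation among these libraries, which may be technical.

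Proline dehydrogenase is a flavoenzyme of the inner mitochondrial membrane. It oxidises proline to pyrroline carboxylate and passes the electrons to ubiquinone of the respiratory chain. Pyrroline carboxylate can then be oxidised to glutamate by ALDH4A1, exchanged with ornithine by OAT, or reduced back to proline, so the gene stands at a crossing of proline, glutamate and ornithine metabolism. PRODH is also known as a gene induced by p53 and as a target of the nuclear receptor PPARG, and its activity can produce reactive oxygen species.

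PRODH lies on chromosome 22q11, from 18912777 to 18936553 on the minus strand of GRCh38 in GENCODE 29. Its longest coding transcript there has 14 exons and 2462 bases. The gene has a relative and a copy that could draw reads from it or lend reads to it. PRODH2 on chromosome 19 encodes hydroxyproline dehydrogenase, and PRODHLP on chromosome 22, from 20299760 to 20313216, is an unprocessed pseudogene of PRODH. To show how far the transcripts can be told apart, the same 90 coding bases of exon 14 (chr22:18913225-18913314 for PRODH, written 5′ to 3′ on the transcript strand) are set below each other, from the GENCODE transcripts of GRCh38. It is the start of the longest stretch that aligned without a gap to both other transcripts, and capitals mark bases that differ from PRODH.
PRODH: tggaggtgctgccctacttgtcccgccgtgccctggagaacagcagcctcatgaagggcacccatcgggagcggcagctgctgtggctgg
PRODHLP: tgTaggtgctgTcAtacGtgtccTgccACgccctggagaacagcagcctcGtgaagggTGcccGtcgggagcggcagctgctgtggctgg
PRODH2: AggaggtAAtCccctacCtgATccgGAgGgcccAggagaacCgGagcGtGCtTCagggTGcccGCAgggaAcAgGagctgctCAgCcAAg

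Within these 90 bases PRODHLP differed from PRODH at 11 positions and PRODH2 at 31. Over the whole transcript the longest exact run that PRODH shared with PRODH2 was 14 bases, and none of its 2413 windows of 50 bases occurred there. With PRODHLP the longest exact run was 73 bases, and 3.77% of the windows of 50 bases but none of the 2363 windows of 100 bases occurred in the copy. Every stretch of 50 bases thus tells PRODH from PRODH2, while short reads of PRODH and PRODHLP can be identical in places. The read length is not given in the sources used here, and PRODHLP was not analysed here.

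The genes that overlap PRODH on the opposite strand share more sequence with it. One transcript of DGCR6, annotated as a target of nonsense-mediated decay, runs through the end of PRODH on the plus strand. Its exons cover 27.2% of the bases of that PRODH transcript, all within exons 13 and 14, which include the stretch printed above. The noncoding locus ENSG00000284294 runs away from the start of PRODH on the plus strand and overlaps its first 143 bases. A further locus, ENSG00000283809, spans PRODH whole on the plus strand in GENCODE 29 and was not analysed here. Whether the libraries kept the strand is not given in the sources used here, and reads of overlapping genes cannot be told apart without it.

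The values are FPKM, a fragment number divided by the length of the transcript and the size of the library, and neither counts nor sequencing depth can be read from them. Differences between the lines are HCC827_Er minus HCC827 on the log2(FPKM + 1) scale, on which changes of low genes look smaller than they are. A gene was called when its limma adjusted p was under 0.05 and its difference was at least 1 on this scale, about a 2-fold change. Of 5276 genes, 44.4% were called either way, 24.7% as higher and 19.7% as lower in HCC827_Er, which is the background for every count below, and the median difference was 0.43. Nearly every gene of the table differed between the lines. Of those tested, 98.3% had an adjusted p under 0.05. Of all listed genes, 50.7% had every HCC827_Er library above every HCC827 library, while 45.4% had the reverse. The sources used here do not say how genes were picked for the table. These shares, and the ranks below, thus hold for the listed genes and may not hold for all genes of the lines. Rescaling the libraries shifted the differences of single tested genes by a median of -0.30 (median ratio), 0.21 (library sums) and -0.13 (quantiles). The calls split into 1304 higher and 1041 lower as deposited, 896 higher and 1657 lower with the median ratio, and 1825 higher and 794 lower with the sums.

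Of 14 lung adenocarcinoma markers, 10 were in the table, and NKX2-1, EPCAM, NAPSA and SFTPB were among the 9 called higher in HCC827_Er. KRT8, the remaining one, lay lower in HCC827_Er without overlap, at 1744 ± 45.9 and 1025 ± 31.7 FPKM, and was not called (difference -0.77). Of 14 leukocyte markers, 5 were in the table and 4 of them, CSF1R, CORO1A, LAPTM5 and CD14, were called higher, with means of 1.73 to 7.66 FPKM in HCC827_Er. With a pseudocount of 5, CSF1R (0.99), LAPTM5 (0.68) and CD14 (0.37) were not called. The summed FPKM of the 5 listed leukocyte markers ran from 172 to 179 in HCC827 and from 131 to 144 in HCC827_Er, most of it from CD68 (174 ± 3.10 and 117 ± 4.36 FPKM, not called), and PTPRC and the T and B cell markers were not analysed here. Of 14 fibroblast and endothelial markers 3 were tested, with a median of -0.40, and COL1A1 was called higher. LUM and EGFL7 lay lower in HCC827_Er without overlap and were not called (differences of -0.87 and -0.40). Of 12 brain and liver markers SERPINA1 and SYT1 were tested and both were called higher, neither with median-ratio rescaling (differences of 0.85 each). SYT1 was not called either with a pseudocount of 5 (0.65), with quantile rescaling (0.94) or without HCC827 library 2 (0.98). Their part in the level of PRODH was not tested.

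PRODH was close to absent from HCC827 and among the more abundant listed transcripts of HCC827_Er. Its level was 0.39, 0.27 and 0.19 FPKM in HCC827 libraries 1, 2 and 3. In HCC827_Er libraries 1, 2 and 3 it was 86.63, 80.47 and 82.60 FPKM. Every HCC827_Er library lay far above every HCC827 library, and no pair of libraries across the lines came near each other. HCC827 averaged 0.283 ± 0.101 FPKM, and HCC827_Er 83.2 ± 3.13 FPKM (SD, n = 3), a ratio of 294. The lowest HCC827_Er library was 206 times the highest HCC827 library, and the highest was 456 times the lowest. On the log2(FPKM + 1) scale the difference was 6.04, while the ratio of the means was 8.20 on a plain log2 scale, because the pseudocount of 1 exceeds the level in HCC827. The FPKM values are given in steps of 0.01 and their counts are unknown, so the ratio is less certain than the level in HCC827_Er. In bulk RNA, a transcript carried by more of the cells and more of it in each cell cannot be told apart.

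The place of PRODH among the listed genes differed between the lines as well. Ranked from the highest FPKM, PRODH was 5364th, 5522nd and 5699th of 6641 listed genes in HCC827 libraries 1, 2 and 3, above 13.9% to 18.9% of them. In HCC827_Er it was 336th, 348th and 338th, above 94.8% to 94.9% of them. The listed genes had a median of 3.89 to 3.95 FPKM in HCC827 and 4.55 to 4.59 FPKM in HCC827_Er, so PRODH lay well below the median gene in one line and well above it in the other. By mean FPKM it was 5550th in HCC827 and 339th in HCC827_Er. Its difference was the 6th largest positive one among the 5276 tested genes.

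The libraries of HCC827_Er agreed closely on PRODH. Its coefficient of variation over the 3 libraries was 3.76%, against a median of 5.99% over the 612 listed genes whose mean FPKM in HCC827_Er lay within 2-fold of its own; 166 of these genes varied less. In HCC827 the coefficient was 35.5%, near the median of 37.9% over the 771 listed genes of similar level. The spread of PRODH in HCC827 was thus that of other very low transcripts.

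PRODH was chosen for its gap between the lines, so that it meets the thresholds below is no result. The counts depend on where these were set. Thresholds of under 0.5 FPKM in all libraries of one line and at least 50 FPKM in all libraries of the other, set after the values were seen, were met by 2 listed genes in the direction of HCC827_Er, PRODH and AGR2, which encodes a protein of the secretory pathway in mucous epithelia. In the other direction they were met by 3 genes, IL13RA2, VCAM1 and GSTA1, which were listed at 0 in all HCC827_Er libraries. Some genes missed them narrowly. MUC5B stood at 49.71 and 44.69 FPKM in HCC827_Er libraries 2 and 3, and KRT16P1 at 45.46 FPKM in HCC827_Er library 3. S100A8 missed them for 0.83 FPKM in HCC827 library 3. Of the 1203 listed genes under 0.5 FPKM in every HCC827 library, 35 reached a mean of 10 FPKM or more in HCC827_Er. Among the 1203 the mean of PRODH in HCC827_Er was the 2nd highest, and the median was 0.673 FPKM.

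**Figure D1:**
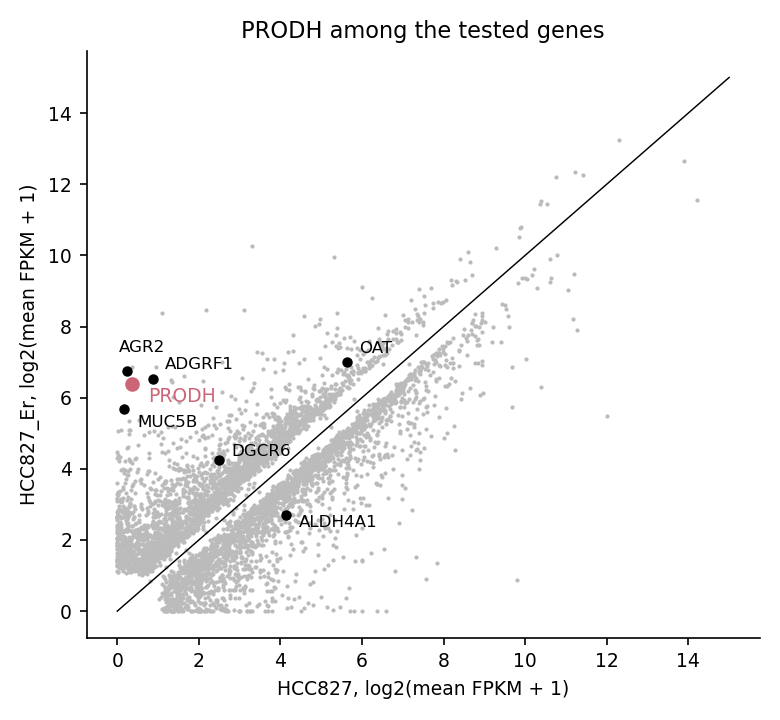
Mean level of each of the 5276 tested genes in HCC827 (horizontal axis) and HCC827_Er (vertical axis), both as log2(mean FPKM + 1); each grey point is a gene, the line marks equal levels, and PRODH is in red with 6 other genes in black. PRODH lies at the upper left edge beside ADGRF1, AGR2 and MUC5B, at 0.283 and 83.2 FPKM. Of the tested genes 44.4% were called either way.

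The other enzymes of proline metabolism did not move as one group. The list of proline synthesis and breakdown held 10 names, of which 5 were in the table: PRODH, ALDH4A1, OAT, PRODH2 and HOGA1. Of the 3 tested members other than PRODH, OAT was called higher, ALDH4A1 was called lower and HOGA1 was not called; their median difference was -0.77, against 0.43 for all tested genes. The other names of the list were not analysed here, so the synthesis of proline is not described.

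ALDH4A1, which takes the product of PRODH on to glutamate, changed in the opposite direction. It stood at 18.37, 14.27 and 17.35 FPKM in HCC827 and at 6.42, 4.78 and 5.47 FPKM in HCC827_Er, without overlap. The fall from 16.7 ± 2.13 to 5.56 ± 0.823 FPKM (SD, n = 3) was a difference of -1.43 (SE 0.13, limma adjusted p = 8.30e-06). FPKM is scaled by transcript length, so the levels of both enzymes can be set side by side within a library, where a rescaling of the library drops out. The ratio of PRODH to ALDH4A1 was 0.0170 ± 0.00539 in HCC827 and 15.1 ± 1.67 in HCC827_Er (SD, n = 3), from 0.0110 to 0.0212 in the first line and from 13.5 to 16.8 in the second. The order of the enzymes thus turned: ALDH4A1 was the more abundant transcript in every HCC827 library and PRODH in every HCC827_Er library.

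OAT, the aminotransferase that exchanges ornithine and pyrroline carboxylate, rose. It stood at 46.43, 48.67 and 50.77 FPKM in HCC827 and at 120.86, 130.46 and 131.80 FPKM in HCC827_Er, without overlap, a difference of 1.37 (SE 0.060, limma adjusted p = 9.36e-08). The ratio of PRODH to OAT went from 0.00590 ± 0.00235 to 0.653 ± 0.0551 (SD, n = 3), so OAT remained the more abundant of the pair in all 6 libraries.

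PRODH2 and HOGA1 act on hydroxyproline, which is released from collagen: PRODH2 takes the first step and HOGA1 the last step in mitochondria. PRODH2 stood at 1.51, 2.36 and 0.58 FPKM in HCC827 and was listed at 0 in all 3 HCC827_Er libraries, the opposite order to PRODH. It was at 1 FPKM or more in only 2 libraries, so it was not tested and no fold is given. HOGA1 stood at 2.78, 2.41 and 1.95 FPKM in HCC827 and 1.16, 0.68 and 1.11 FPKM in HCC827_Er, a difference of -0.77 (SE 0.14, limma adjusted p = 7.51e-04) that lay under the 2-fold minimum.

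**Figure D2:**
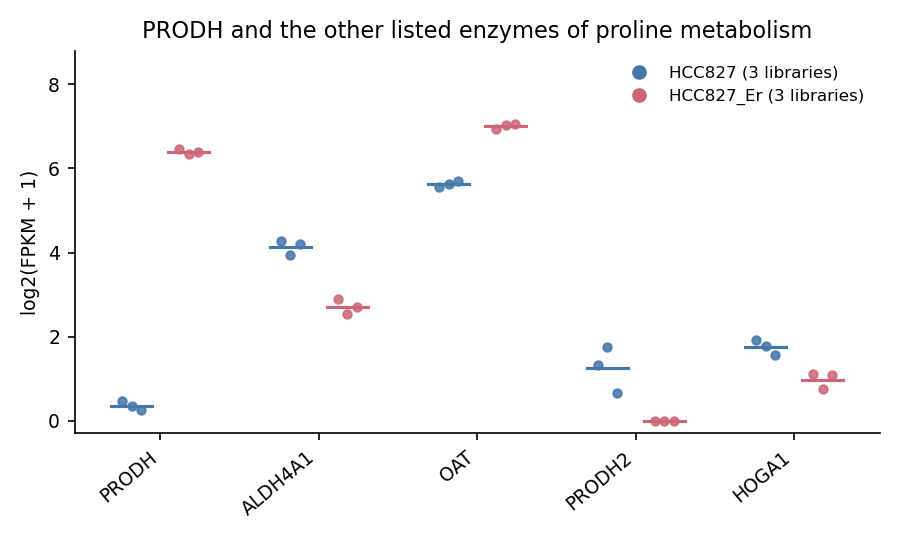
Level of PRODH and the other 4 listed enzymes of proline and hydroxyproline metabolism, as log2(FPKM + 1); each point is a library, blue for HCC827 and red for HCC827_Er, and each bar is the mean of the 3 libraries of a line. PRODH and OAT are higher and ALDH4A1, PRODH2 and HOGA1 lower in HCC827_Er, without overlap. The gap is widest for PRODH, which was chosen for its gap.

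Transcripts of proline carriers did not follow PRODH. Of 14 carriers, 4 were in the table and tested; none was called higher and 2 were called lower, with a median of -0.87. SLC6A20, a carrier of proline and other imino acids, fell from 4.67, 4.08 and 6.51 FPKM to 0.51, 0.41 and 0.63 FPKM (difference -1.99, SE 0.16, limma adjusted p = 3.53e-06). SLC38A4, a carrier of neutral amino acids, stood at 1.33 ± 0.119 FPKM in HCC827 and was listed at 0 in HCC827_Er. With a minimum of 5 FPKM neither carrier was tested, and with a pseudocount of 5 neither was called.

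Genes that free proline from proteins and peptides included some that rose. Of 18 peptidases and collagenases, 6 were in the table and 5 were tested; 3 were called higher and none lower, with a median of 1.21. MMP13, a collagenase, rose from 0.08, 0.13 and 0.02 FPKM to 5.82, 6.79 and 5.89 FPKM (difference 2.73, SE 0.11, limma adjusted p = 5.82e-08). DPP4, which cuts dipeptides ending in proline from the start of peptides, rose from 21.6 ± 0.402 to 72.9 ± 5.82 FPKM, and the gelatinase gene MMP9 from 0.280 ± 0.104 to 1.95 ± 0.266 FPKM (SD, n = 3). PEPD, the prolidase that releases free proline from dipeptides, was not called, with 43.2 ± 1.55 FPKM in HCC827 against 25.2 ± 2.75 FPKM (difference -0.76). With median-ratio rescaling 1 member was called lower.

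Chains of collagen, a protein rich in proline, moved both ways. Of 34 collagen chains, 18 were in the table and 13 were tested; 4 were called higher and 5 lower, with a median of -0.64. COL11A1 fell from 12.8 ± 1.36 FPKM to 0.00333 ± 0.00577 FPKM and COL4A1, a chain of basement membranes, from 29.3 ± 1.08 to 1.97 ± 0.241 FPKM. COL17A1, a collagen of hemidesmosomes, rose from 5.48 ± 0.579 to 39.5 ± 4.04 FPKM, and COL1A1 from 0.750 ± 0.243 to 10.1 ± 0.932 FPKM (SD, n = 3). Of 14 genes that hydroxylate or fold collagen, 7 were tested, with 1 called higher and 3 lower and a median of -0.88. Among them P3H2, a prolyl hydroxylase, fell from 57.9 ± 1.55 to 10.7 ± 2.84 FPKM, and the collagen chaperone gene SERPINH1 rose from 4.52 ± 0.771 to 20.8 ± 2.40 FPKM. P3H3, a relative of P3H2, and CRTAP, a partner of the prolyl hydroxylase P3H1, were called lower with differences of -1.04 and -1.08, both near the minimum, and both lay under it with rescaling by the sums (-0.85 and -0.83). The call of P3H3 was also lost without HCC827_Er library 2 or 3 or HCC827 library 2 (differences of -0.98, -0.9998 and -0.995).

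Genes of glutamate, ornithine and arginine metabolism, which feed or drain the same pool, mostly stayed under the 2-fold minimum. Of 28 names 11 were in the table and 9 were tested; 1 was called higher and 1 lower, with a median of -0.57. GLUL, which turns glutamate into glutamine, fell from 45.9 ± 0.892 to 17.6 ± 1.26 FPKM (SD, n = 3; difference -1.34, SE 0.073, limma adjusted p = 3.19e-07). ASS1, an enzyme of arginine synthesis, rose from 64.5 ± 2.62 to 148 ± 3.56 FPKM (difference 1.18), with a difference of 0.84 after median-ratio rescaling, under the minimum.

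PRODH delivers its electrons to ubiquinone, as do other dehydrogenases of the inner membrane. Of 25 genes for such dehydrogenases and for the synthesis of ubiquinone, 9 were in the table and tested; 1 was called higher and 2 lower, with a median of -0.65. GPD2, which brings electrons from glycerol phosphate to ubiquinone, rose from 11.54 ± 2.47 to 28.8 ± 1.49 FPKM; with median-ratio rescaling its difference was 0.94, under the minimum for a call. AIFM2, a reductase of ubiquinone outside the chain, fell from 5.003 ± 0.291 to 0.887 ± 0.214 FPKM, and COQ9, needed for ubiquinone synthesis, from 133 ± 5.24 to 56.8 ± 2.84 FPKM (SD, n = 3). The difference of COQ9 was -0.97 with rescaling by the sums or by quantiles, under the minimum. SDHB, a subunit of succinate dehydrogenase, stood next below PRODH by mean FPKM in HCC827_Er, at 81.12, 85.82 and 82.01 FPKM, and at 124.31, 131.25 and 125.47 FPKM in HCC827.

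Redox defence genes, not all of them mitochondrial, mostly had differences below 0 that stayed under the minimum. Of 21 names 9 were in the table and tested; in 7 the HCC827_Er libraries lay below those of HCC827 without overlap, against 45.4% of all listed genes. GPX2 was called higher, SOD2 was called lower, and the median was -0.70. SOD2, the manganese superoxide dismutase of mitochondria, fell from 2106 ± 64.2 to 520 ± 14.04 FPKM. GPX2, a glutathione peroxidase of epithelia, rose from 3.19 ± 0.573 to 29.2 ± 2.83 FPKM (SD, n = 3). With median-ratio rescaling 5 of the 9 were called lower.

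**Figure D3:**
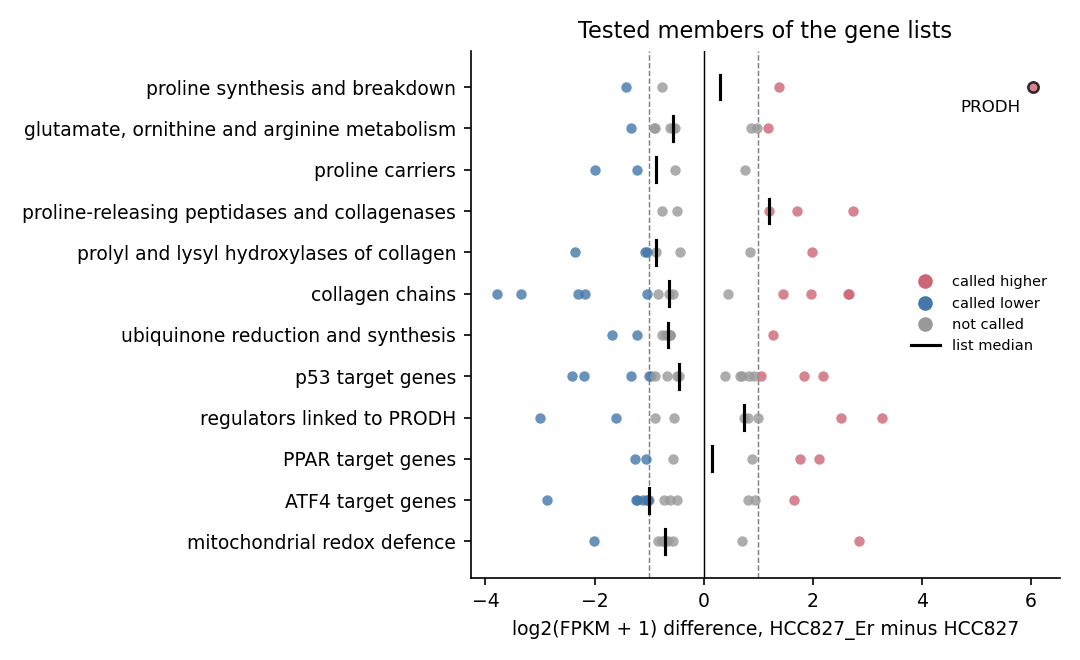
Differences of the tested members of 12 gene lists around PRODH, as HCC827_Er minus HCC827 on the log2(FPKM + 1) scale; each point is a gene, red if called higher, blue if called lower and grey if not called, black bars are list medians and dashed lines mark a difference of 1 either way. PRODH, chosen for its gap between the lines, is outlined in black at 6.04 and lies beyond all other members. Most lists have members on both sides of 0.

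Among transcription factors and other regulators linked to PRODH in other settings, 9 of 18 names were in the table and tested; 2 were called higher and 2 lower, with a median of 0.75. PPARG, the nuclear receptor named above, fell from 40.15, 39.53 and 32.20 FPKM to 11.46, 12.07 and 11.10 FPKM (difference -1.60, SE 0.097, limma adjusted p = 6.46e-07), the opposite direction to PRODH. Its coactivator gene PPARGC1A fell from 7.14, 5.62 and 8.55 FPKM to 0, 0 and 0.02 FPKM. NKX2-1, which directs the identity of lung epithelial cells, rose from 5.93 ± 0.898 to 65.7 ± 4.65 FPKM, and TP63, a relative of p53 in basal and squamous cells, from 0.170 ± 0.0819 to 5.71 ± 0.746 FPKM (SD, n = 3). MYC and HIF1A lay lower and PPARD, HELLS and TP73 higher in HCC827_Er without overlap, and none of them was called. PPARD, another PPAR receptor, stood at 5.79 ± 0.531 and 12.5 ± 1.24 FPKM (SD, n = 3), with a difference of 0.99, just under the minimum.

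Other known targets of p53 moved both ways. Of 32 names 17 were in the table and tested; 3 were called higher and 4 lower, with a median of -0.46. FUCA1, a lysosomal fucosidase, rose from 7.30 ± 0.386 to 36.6 ± 1.38 FPKM and TP53I11 from 2.69 ± 0.565 to 12.1 ± 0.515 FPKM. In the other direction CYFIP2 fell from 10.4 ± 1.36 to 1.16 ± 0.312 FPKM and the kinase gene PLK2 from 96.8 ± 1.75 to 20.4 ± 1.28 FPKM (SD, n = 3). The largest difference among the 17 was -2.41, for CYFIP2. PRODH was chosen for its gap between the lines, so that its own difference is larger is no result.

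Targets of the PPAR receptors were split as well. Of 27 names 10 were in the table and 6 were tested; 2 were called higher and 2 lower, with a median of 0.16. ACSL1, which activates fatty acids, rose from 5.62 ± 0.624 to 27.8 ± 2.25 FPKM and ANGPTL4, an inhibitor of lipoprotein lipase, from 48.8 ± 4.61 to 169 ± 5.43 FPKM. PLIN2, a coat protein of lipid droplets, fell from 299 ± 2.89 to 125 ± 5.66 FPKM, and FABP5, a fatty acid binding protein, from 331 ± 12.8 to 159 ± 6.29 FPKM (SD, n = 3). The difference of FABP5 was -0.80 with rescaling by the sums or by quantiles, under the minimum.

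Targets of ATF4, the factor of the amino acid response that drives enzymes of proline synthesis, were called lower more often than higher. Of 29 names 13 were in the table and tested; 1 was called higher and 6 lower, with a median of -0.997. ATF3 fell from 64.3 ± 8.17 to 8.04 ± 2.09 FPKM and DDIT3, which encodes CHOP, from 40.5 ± 2.62 to 16.6 ± 0.886 FPKM (SD, n = 3). DDIT4, an inhibitor of mTORC1 signalling, rose from 168 ± 10.2 to 533 ± 34.7 FPKM. NUPR1, a stress protein of chromatin, fell from 54.2 ± 10.3 to 22.5 ± 3.29 FPKM. The counts depended on scale: with rescaling by the sums 3 genes were called higher and 1 lower, without DDIT3 and NUPR1, and with rescaling by quantiles 3 were called higher.

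The genes around PRODH on chromosome 22 were higher more often than lower. Positions were compared by lower coordinate, which for PRODH on the minus strand is where it ends. Within 3 Mb of that point 18 other genes were in the table, 11 of them among the 78 other protein-coding genes that RefSeq lists there. Of the 18, 14 were tested. Of these, 5 were called higher and none lower, with a median of 0.65; over all tested genes 24.7% were called higher and 19.7% lower. Over all 87 tested genes of chromosome 22 but PRODH, which include these 14, the median was -0.52, with 21 called higher and 20 lower. Without HCC827_Er library 1 only 3 neighbours were called higher (DGCR6, USP18 and CDC45), and with median-ratio rescaling 2 were called higher and 2 lower.

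DGCR6, the next gene on the side where PRODH ends, had the largest difference of the 14 tested neighbours with a RefSeq position. It stood at 4.99, 4.69 and 4.25 FPKM in HCC827 and at 21.23, 16.21 and 16.49 FPKM in HCC827_Er, without overlap (difference 1.74, SE 0.12, limma adjusted p = 1.67e-06). DGCR6 has a near-identical relative on the same chromosome arm, DGCR6L, and reads of the pair can be shared. The ratio of PRODH to DGCR6 was 0.0601 ± 0.0169 in HCC827 and 4.68 ± 0.524 in HCC827_Er (SD, n = 3). PRODH was chosen for its gap, so that it changed more than its neighbour is no result. ENSG00000284294, the noncoding locus that runs away from the start of PRODH, stood at 1.70, 5.80 and 1.02 FPKM in HCC827 and at 13.49, 11.42 and 10.08 FPKM in HCC827_Er (difference 1.92, SE 0.38, limma adjusted p = 0.00112); it was singled out for its place after its values were seen. Both overlapping loci with values were thus higher in the line with high PRODH; whether reads of PRODH entered their values was not tested.

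The genes farther out did not keep one direction. On the side beyond the start of PRODH the nearest listed gene with a RefSeq position, the noncoding DGCR5, stood at 2.91, 3.50 and 3.71 FPKM in HCC827 and 1.85, 1.31 and 1.72 FPKM in HCC827_Er, a difference of -0.74 that was not called. LINC01311 followed at 0.747 ± 0.273 and 1.70 ± 0.427 FPKM (difference 0.63, not called). CDC45, a replication factor, rose from 15.2 ± 1.22 to 36.5 ± 3.64 FPKM, and its difference was 0.87 with median-ratio rescaling, under the minimum. GNB1L, with a difference of 1.03, was not called with that rescaling (0.72) or by quantiles (0.90), nor without HCC827_Er library 1 (0.97) or HCC827 library 2 (0.95). On the DGCR6 side the pseudogene PI4KAP1 stood at 16.7 ± 0.946 and 30.7 ± 3.06 FPKM (difference 0.83, not called), FAM230A stood at 0.23 FPKM or less in every library, and USP18, a protease of the interferon response, rose from 3.49 ± 0.117 to 10.7 ± 1.68 FPKM (SD, n = 3). YPEL1, the farthest, was called higher with a difference of 1.13, but HCC827_Er library 2 stood at 1.15 FPKM beside 4.56 and 4.55 FPKM in the other two, and it was not called without either of these (0.90 each) or with rescaling by the median ratio or quantiles (0.92 each).

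**Figure D4:**
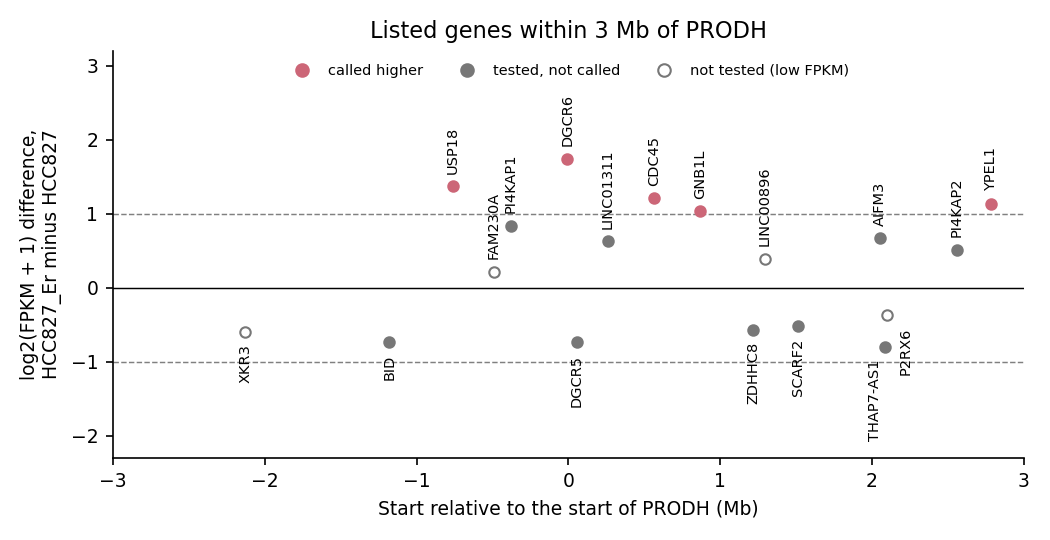
Difference between the lines for the 18 listed genes within 3 Mb of PRODH, as HCC827_Er minus HCC827 on the log2(FPKM + 1) scale, against the distance of their start from that of PRODH in Mb; red points were called higher, grey points were tested and not called, open points had too little FPKM to be tested, and dashed lines mark a difference of 1 either way. Starts are lower coordinates, which for PRODH on the minus strand is where it ends. DGCR6, at 1.74, is the highest point. Genes on both sides of 0 lie near PRODH, which itself (6.04) is off the scale and is not drawn.

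Last, the genes whose change was most like that of PRODH were found by distance. The measure was the root mean square difference of log2(FPKM + 1) over the 6 libraries, with each gene centred on its own mean; the smaller it is, the more alike are the size and shape of the change. Since PRODH separates the lines, any gene with a like gap ranks high, and the measure says little beyond that: 792 of the tested genes had a Pearson r above 0.99 with PRODH over the 6 libraries. The nearest genes were ADGRF1 (0.23), MUC5B (0.29), AGR2 (0.32), DEFB4A (0.36), SFTA2 (0.44), S100A8 (0.44), S100A7 (0.45) and CYP24A1 (0.48).

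ADGRF1, an adhesion G-protein coupled receptor, stood at 0.82, 1.16 and 0.49 FPKM in HCC827 and at 91.30, 93.16 and 89.03 FPKM in HCC827_Er. MUC5B, an airway mucin, stood at 0.14, 0.11 and 0.14 FPKM and at 57.75, 49.71 and 44.69 FPKM. AGR2 stood at 0, 0.13 and 0.40 FPKM and at 113.26, 96.55 and 110.72 FPKM. CYP24A1, the enzyme that inactivates vitamin D, stood at 1.76, 1.41 and 1.45 FPKM and at 81.42, 89.51 and 85.72 FPKM, with every HCC827 library above those of PRODH. SFTA2 and S100A8 varied more in HCC827, where library 3 was the highest, at 5.87 and 0.83 FPKM. DEFB4A, a defensin, has a near-identical copy in the genome, and its value is uncertain for that reason. With level counted as well the nearest genes were AGR2 (0.34), ADGRF1 (0.39), S100A8 (0.49) and MUC5B (0.53). No gene of the lists of proline, glutamate or ubiquinone metabolism was among the nearest by either measure.

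**Figure D5:**
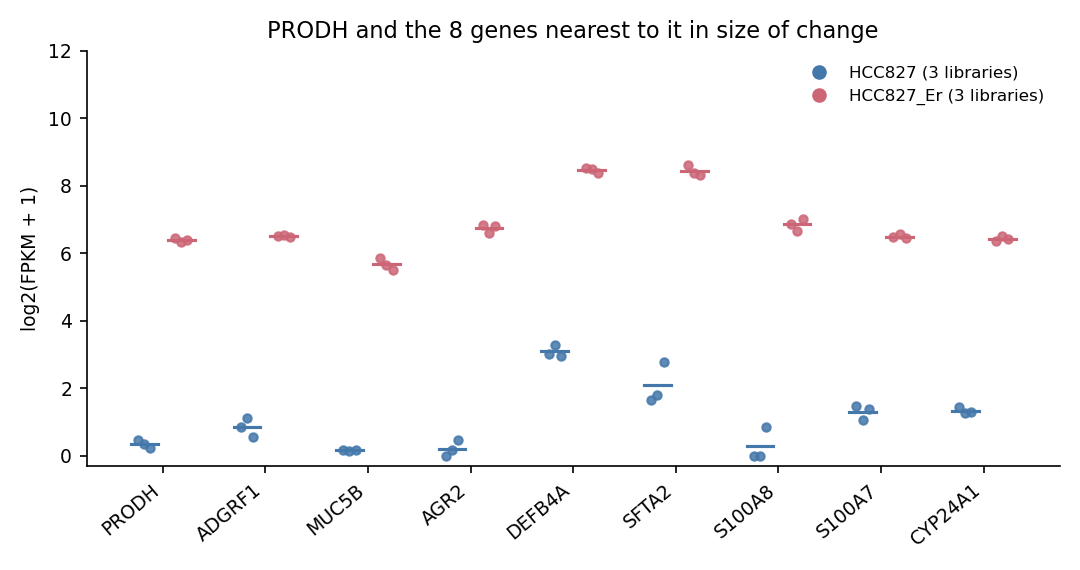
Levels of PRODH and the 8 genes nearest to it by the centred distance, as log2(FPKM + 1), in order of distance; each point is a library, blue for HCC827 and red for HCC827_Er, and each bar is the mean of the 3 libraries of a line. All 9 genes show a wide gap, with differences from 5.09 (CYP24A1) to 6.56 (S100A8). DEFB4A and SFTA2 have the highest mean levels of the 9 in HCC827.

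By level alone PRODH stood among genes of general cell functions in HCC827_Er. The named genes next above it by mean FPKM were COA3, an assembly factor of cytochrome oxidase, at 83.3 ± 0.202 FPKM, and COPA, a coat protein of transport vesicles, at 83.4 ± 7.26 FPKM. The next below were SDHB, at 83.0 ± 2.50 FPKM, and the metallothionein gene MT1A, at 82.7 ± 3.16 FPKM (SD, n = 3). They were chosen as its neighbours in rank, so their closeness to PRODH is no result. In HCC827 the same 4 genes had means of 17.4 FPKM (MT1A) to 127 FPKM (SDHB), all far above PRODH.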

How the data were processed

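Per the labels' protocols, total RNA of 6 samples went into TruSeq RNA libraries (Illumina); the protocol text speaks of tissue although the samples are cell lines. What the authors deposited is 1 table of FPKM by gene and library, without counts, so depth and counting error are unknown. The submitters' processing notes list fastp, HISAT2 and StringTie as tools and both GRCh38.p14 and hg19 as builds, with no role for either. How genes were picked for the table, the annotation and the strand setting are not given in those sources.

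The test took in the 5276 of 6641 genes that reached 1 FPKM in 3 of the 6 libraries. Values were log2(FPKM + 1), with a pseudocount of 1, and limma (version 3.58.1, under R 4.3.3, with lmFit and a trended eBayes) was fitted with the line as its only term and Benjamini-Hochberg adjustment. The fit was tested on simulated data. Calls had to pass an adjusted p of 0.05 and show a difference of 1 or more. Symbols were matched for 6636 genes, RefSeq positions (GRCh38.p14, by symbol) for 5859 and GENCODE 29 positions for 6353. Transcripts were compared with blastn 2.17.0. No pair of libraries of a line had more than 317 identical values, and the deviations of same-numbered libraries correlated at 0.106 or less.

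PRODH, the gene lists and the tests were chosen with earlier results of these data known. Named genes were PRODH, every listed proline enzyme, up to 4 called members of each other list by size of difference, the 3 nearest neighbours on either side and every called neighbour, the 8 and 4 genes most like PRODH and the 4 next in level. Alternatives were other pseudocounts, minimum FPKM values, rescalings, eBayes without a trend, a replicate block and leaving out each library. Positions from GENCODE were added after the data were seen.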

Additional observations from a re-analysis of the deposited data

How the results depend on the processing

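The difference of PRODH was 7.80 with a pseudocount of 0.1, 4.06 with a pseudocount of 5, 5.80 with median-ratio rescaling and 6.19 with rescaling by the sums, and between 5.99 and 6.10 without single libraries. With a pseudocount of 5, 579 genes were called higher and 506 lower, and 1 ubiquinone gene, 2 p53 targets and 0 carriers were called lower and 2 neighbours higher. With a minimum of 5 FPKM, 867 genes were called higher, and 0 carriers and 1 ubiquinone gene lower. With a pseudocount of 0.1, 2 proline enzymes were called lower (2 also with no minimum FPKM), 1 carrier, 5 p53 targets and 4 regulators higher, and 1 neighbour lower. With median-ratio rescaling 1657 genes were called lower; 0 glutamate genes were called higher and 3 lower, 1 peptidase lower, 0 ubiquinone genes higher, 5 redox genes lower, and 2 neighbours higher and 2 lower. With rescaling by the sums 3 glutamate genes, 2 hydroxylase genes, 5 p53 targets and 3 ATF4 targets were called higher, and 1 each of the hydroxylase, ubiquinone, PPAR and ATF4 lists lower. With quantile rescaling 3 glutamate genes, 2 hydroxylase genes, 3 ATF4 targets and 3 neighbours were called higher, and 1 gene each of the ubiquinone and PPAR lists lower. With GENCODE positions 1 neighbour was called lower. Without single libraries, glutamate genes called higher ranged from 1 to 2 (2 without HCC827_Er library 1 or HCC827 library 3), neighbours called higher from 3 to 5 and neighbours called lower from 0 to 1 (1 without HCC827_Er library 3). Of the genes that the naming rule above picked, 12 lost their call with a pseudocount of 5 (MMP9, AIFM2 and USP18 among them). Median-ratio rescaling took the call from 7, and the sums and the quantiles from 6 each. A pseudocount of 0.1 gave a call to 3 and the sums to 1. Where the rule of a setting did not itself take genes out of the test, the cause was not tested.

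The libraries are numbered 1 to 3 in both lines, and same-numbered libraries correlated at 0.106, -0.02 and 0.0489 in their deviations. The labels do not say that a number pairs libraries, and correlations this weak over so few libraries cannot decide it. With the replicate block 1304 genes were called higher and 1041 lower, as without it, and the difference of PRODH was 6.04. No difference of a named gene changed sign under the alternatives run. The balance of calls did turn: for all genes with the median ratio, where 896 were called higher and 1657 lower, and with the sums for the ATF4 targets (3 higher, 1 lower) and the collagen hydroxylase list (2 higher, 1 lower). It also turned for the p53 targets, with the sums (5 higher, 3 lower) and without HCC827 library 3 (4 higher, 3 lower). Because the table holds no counts, the precision of low values such as PRODH in HCC827 cannot be given beyond the spread of 3 libraries.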
